A study of Mus musculus with 2 samples.

Results

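The interleukin-1 system was followed in cells that had entered scaffolds placed in a mouse skull defect. It was read through 7 genes: the ligands Il1a, Il1b and Il1f9, the receptor antagonist Il1rn, the signalling receptor Il1r1, the decoy receptor Il1r2 and the shared receptor subunit Il1rap. The members were chosen by gene symbol, and all 7 were found among the 32285 genes of the matrices. The groups were Gel50_CS50 and Gel100, 2 scaffold compositions whose names are explained in none of the sources used here. In both groups, female Balb/c mice aged 6 weeks had a 3.5 mm hole drilled in the cranial bone, which was filled with a scaffold that held no cells. Scaffolds were taken out after 1 week, and cells of 5 mice were pooled per group, enzymatically released, sorted for viability and profiled on the 10x Chromium 3′ platform. There is thus 1 library per scaffold, with no replicates and no unoperated or empty-defect library analysed here. No test between the scaffolds was possible, and every interval below is a 95% interval for counting error alone, which says nothing of how mice or pools vary.

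Interleukin-1 is an early alarm signal of injured and infected tissue. Interleukin-1 alpha and beta bind the receptor encoded by Il1r1, which then recruits the accessory protein encoded by Il1rap and signals through MyD88 and IRAK kinases to NF-kB. The antagonist encoded by Il1rn occupies the same receptor without recruiting the accessory protein, and the receptor encoded by Il1r2 binds the ligands but cannot signal. Il1f9 encodes interleukin-36 gamma, which acts through Il1rl2 together with Il1rap. In bone, interleukin-1 is known for promoting osteoclast formation and for inducing chemokines and matrix proteases in mesenchymal cells.

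The genes lie on 3 chromosomes of the mm10 genome, by the GENCODE vM21 annotation. Il1f9 (chromosome 2, 24186476 to 24193568, plus strand), Il1rn (chromosome 2, 24336853 to 24351494, plus strand), Il1b (chromosome 2, 129364570 to 129371139, minus strand) and Il1a (chromosome 2, 129299610 to 129309972, minus strand) share a chromosome. Il1r2 (chromosome 1, 40074079 to 40125231, plus strand) and Il1r1 (chromosome 1, 40225080 to 40317257, plus strand) are neighbours, and Il1rap lies at chromosome 16, 26581704 to 26730117, plus strand. All 7 had a RefSeq promoter window (build GRCm38.p6, 300 bases, 10 windows in all, since Il1rn and Il1r1 have several starts). The 100 bases before the start of Il1a and Il1b are shown because both ligands were higher in the same myeloid classes, as described below. Sequences run 5′ to 3′ on the minus strand, and the capitals mark TATAAA. Il1a is at chr2:129309973-129310072 and Il1b at chr2:129371140-129371239.
Il1a: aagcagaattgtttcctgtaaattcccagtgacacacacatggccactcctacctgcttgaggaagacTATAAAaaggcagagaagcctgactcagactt
Il1b: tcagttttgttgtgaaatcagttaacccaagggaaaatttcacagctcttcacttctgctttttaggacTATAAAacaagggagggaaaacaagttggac
The match begins at position -32 from the start in Il1a and -31 in Il1b. TATAAA was searched on both strands and occurred in 13.6% of 32851 promoter windows, and on the gene's own strand in 8.3%. Among the other members' windows it occurred only in 1 Il1rn window, on the opposite strand. Motifs for NF-kB, C/EBP and the interferon response were searched as well, each as a single fixed pattern of letters. They had no match in the windows of Il1a and Il1b. Among all windows, 20.7% matched for NF-kB, 10.8% for C/EBP and 3.4% for the interferon response, so most windows lacked each pattern. The absence therefore does not show that Il1a and Il1b lack sites for these factors. Among the other members, NF-kB matched in windows of Il1f9, Il1rn and Il1rap, C/EBP in Il1r1 and the interferon response in Il1rap. These matches describe the letters of the windows and nothing more.

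The libraries held 7206 kept cells in Gel50_CS50 and 7601 in Gel100, with medians of 16509.5 and 12707 unique molecular identifiers (UMIs, each standing for 1 captured RNA molecule). The libraries differed in cells of low depth: clusters without a class name held 4.45% of Gel50_CS50 and 15.8% of Gel100 cells, most of them under the UMI limit for a name. They shared 24 cell barcodes, of which 23 were kept in each. Cells were clustered with the 7 members left out of the variable genes, and clusters were named from marker genes, so a class name means cells like that type. Macrophages and monocytes numbered 3614 and 3742 cells, neutrophils 1402 and 614, conventional dendritic cells 378 and 409, stromal cells 653 and 223, and gamma-delta T cells 74 and 94. Every marker of the 10 reported classes had UMIs in its own class. This is a weak check, since all 13 macrophage and monocyte markers also had UMIs in neutrophils on both scaffolds. Levels are given as CPM, the UMIs of a gene per 1000000 UMIs of all genes in the cells of that class.

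By CPM, which sets aside how many UMIs a cell holds, the class with the highest level of each gene was the same on both scaffolds. Neutrophils ranked highest for Il1a, Il1b, Il1rn, Il1r2, Il1rap and Il1f9. Gamma-delta T cells ranked highest for Il1r1, which was at most 5 CPM in neutrophils, macrophages and dendritic cells. Ligand RNA was thus highest in myeloid cells, while the signalling receptor's RNA was highest in gamma-delta T, stromal, mural and endothelial cells. In UMIs per cell, Il1b, Il1rap and Il1f9 stayed highest in neutrophils, but the other genes changed class on a single scaffold each. In Gel50_CS50, Il1r1 was 13.1 in stromal and 11.5 in gamma-delta T cells, and Il1r2 12.2 in conventional dendritic cells and 8.42 in neutrophils. Il1a was 3.46 in macrophages and 3.43 in neutrophils there. In Gel100, Il1rn was 7.18 in conventional dendritic cells, 6.20 in macrophages and monocytes and 5.26 in neutrophils.

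**Figure D1:**
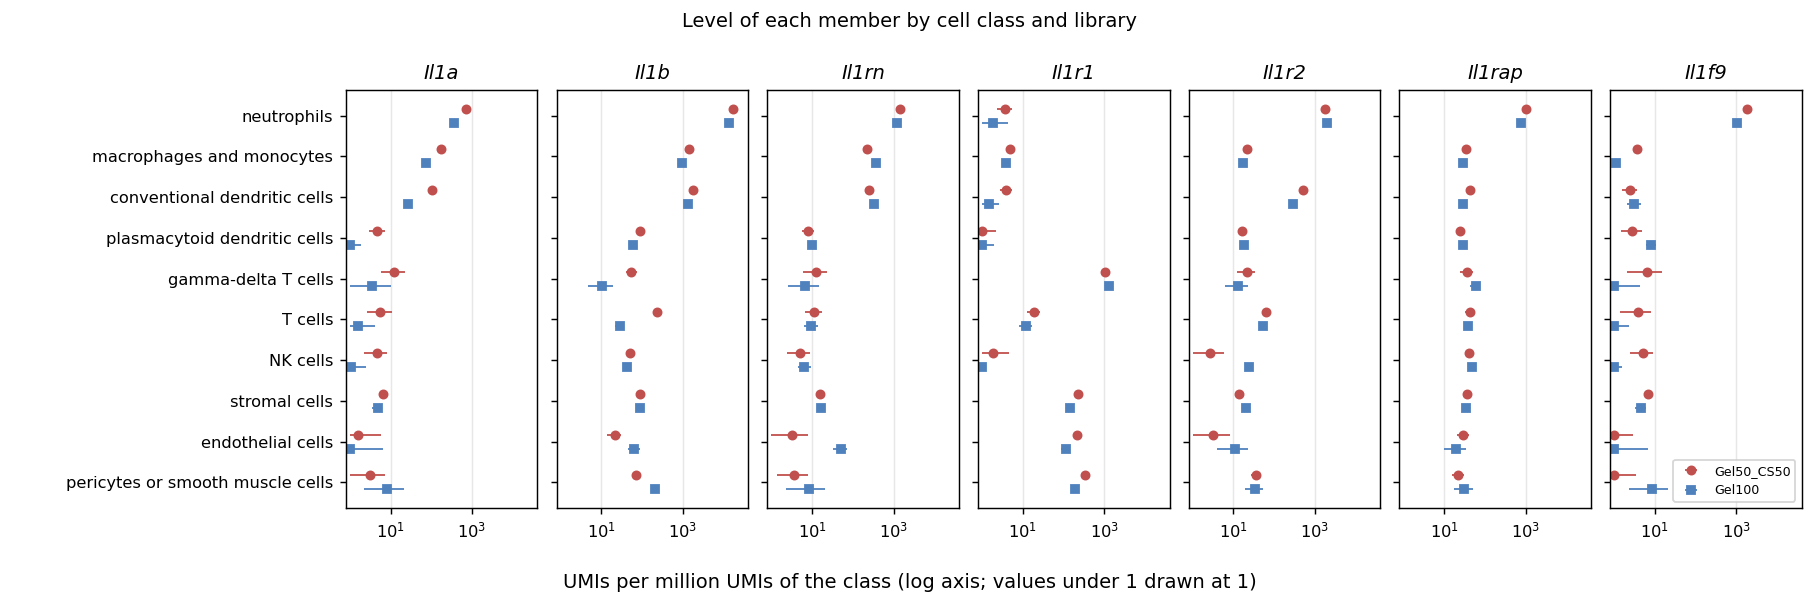
Level of each of the 7 genes in 10 cell classes, in CPM on a log axis; red circles are Gel50_CS50, blue squares Gel100, and bars are 95% counting intervals. Neutrophils stand at the right for 6 genes, and for Il1r1 gamma-delta T cells do, at 1055 CPM in Gel50_CS50 and 1325 CPM in Gel100.

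The ligand Il1b was the most widely found member. In neutrophils it stood at 17516 CPM in Gel50_CS50 (17415 to 17618) and 13718 CPM in Gel100 (13579 to 13859), a log2 ratio of Gel50_CS50 over Gel100 of 0.35 (0.34 to 0.37). In macrophages and monocytes it was 1422 CPM in Gel50_CS50 and 959 CPM in Gel100, a log2 ratio of 0.57 (0.55 to 0.58). In conventional dendritic cells it was 1785 CPM in Gel50_CS50 and 1314 CPM in Gel100, a log2 ratio of 0.44 (0.41 to 0.48). Il1b was therefore higher in Gel50_CS50 in all 3 myeloid classes, by less than 1.5-fold in each, although the macrophage ratio reached 0.59, just past that limit, when each library was clustered alone. With the same cluster weights in both libraries the log2 ratio fell to 0.28 in macrophages and 0.20 in neutrophils. The size of these differences thus depended on the makeup of the class. Dendritic cells and macrophages were neighbours in the order, and their levels overlapped across the libraries.

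Thinned to 3000 UMIs per cell to remove the depth gap, Il1b was seen in 99.2% of Gel50_CS50 and 96.4% of Gel100 neutrophils, and in 57.7% and 57.2% of macrophages (unthinned, 80.1% and 75.2%). In NK cells, taken here as a reference, the thinned shares were 8.33% in Gel50_CS50 and 8.76% in Gel100 (median depths 9584 and 9226 UMIs). Stromal cells, at 11.1% in Gel50_CS50 and 8.88% in Gel100, and T cells, at 11.2% and 9.69%, stood close to NK cells. These shares are not read as expression, and whether they reflect it was not tested. Gamma-delta T cells had lower shares, at 2.86% in Gel50_CS50 (2 of 70 cells, 0.3479 to 9.943%) and 3.26% in Gel100 (3 of 92 cells, 0.6776 to 9.235%). These wide intervals overlapped those of NK, T and stromal cells on the same scaffold. Endothelial cells had 12.2% in Gel50_CS50 and 18.2% in Gel100, from 49 and 22 thinned cells. Pericytes or smooth muscle cells had 9.62% in Gel50_CS50 and 33.3% in Gel100 (13.34 to 59.01%), from 52 and 18 thinned cells. Whether the classes shared a common level was not tested. Where the Il1b UMIs of these lymphoid, stromal, endothelial and mural cells came from was not tested. Stromal Il1b was 90.7 CPM in Gel50_CS50 and 87.2 CPM in Gel100, with 5 cells holding 22.6% and 49.8% of its UMIs. Il1bos, which is annotated antisense to Il1b, gave 0.00229 UMIs per Il1b UMI in Gel50_CS50 and 0.00294 in Gel100 macrophages. The sources used here do not say whether counting used the strand.

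Il1a, the ligand that is active without cleavage and is released by dying cells, differed more between the scaffolds than Il1b. In macrophages and monocytes it was 171 CPM in Gel50_CS50 (168 to 174) and 72.2 CPM in Gel100 (70.1 to 74.4), a log2 ratio of 1.24 (1.19 to 1.29). In neutrophils it was 730.3 CPM in Gel50_CS50 and 368 CPM in Gel100, a log2 ratio of 0.99 (0.89 to 1.09). Thinned to equal depth, Il1a was seen in 19.2% of Gel50_CS50 and 11.7% of Gel100 macrophages (unthinned, 38.5% and 24.2%), and in 42.8% and 31.3% of neutrophils. In NK cells the thinned share of Il1a was 0.98% in Gel50_CS50 and 0.23% in Gel100. Levels in conventional dendritic cells were 103 CPM in Gel50_CS50 and 27.2 CPM in Gel100, where 5 cells held 45.3% and 38.9% of the UMIs. That log2 ratio of 1.93 (1.72 to 2.14) became -0.48 when each library was clustered alone, so the direction in dendritic cells depended on the clustering. Dendritic cluster 14 (led by Mmp12, Ccl22 and Timd4) held 947 of the 965 Gel50_CS50 and 227 of the 234 Gel100 UMIs of Il1a. Its marker score was 3.3 for conventional dendritic cells and 1.98 for macrophages and monocytes, the next class.

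The antagonist Il1rn differed in the opposite sense in macrophages. It stood at 221 CPM in Gel50_CS50 (217 to 224) and 379.7 CPM in Gel100 (375 to 385), a log2 ratio of -0.78 (-0.81 to -0.75). At equal depth it was seen in 33.2% of Gel50_CS50 and 46.2% of Gel100 macrophages, and in 2.45% and 2.54% of NK cells. In neutrophils it was 1437 CPM in Gel50_CS50 and 1190 CPM in Gel100, a log2 ratio of 0.27 (0.22 to 0.33). In conventional dendritic cells it was 256 CPM in Gel50_CS50 and 341 CPM in Gel100, a log2 ratio of -0.41 (-0.49 to -0.34), and it was lower in Gel50_CS50 in 3 of 3 dendritic clusters, with every interval below 0. Over the alternatives that ratio ranged from -0.94, with each library clustered alone, to 0.22, with each cell gated on its own markers. It lay below 1/1.5 in the first of these settings and, at -0.60, with the same cluster weights in both libraries. Counts from the 3′ end cannot tell the secreted and intracellular forms of the antagonist apart.

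Antagonist and ligand UMIs, each summed over a class, were also set against each other. Macrophages held 0.155 Il1rn UMIs per Il1b UMI in Gel50_CS50 (0.153 to 0.158) and 0.396 in Gel100 (0.390 to 0.402). Per Il1a UMI the values were 1.29 in Gel50_CS50 (1.26 to 1.32) and 5.26 in Gel100 (5.09 to 5.43). Neutrophils held 0.0821 Il1rn UMIs per Il1b UMI in Gel50_CS50 (0.0804 to 0.0838) and 0.0867 in Gel100 (0.0836 to 0.0899). These intervals overlapped, but per Il1a UMI neutrophils held 1.97 in Gel50_CS50 (1.90 to 2.04) and 3.23 in Gel100 (3.01 to 3.47), which do not. Conventional dendritic cells held 0.143 Il1rn UMIs per Il1b UMI in Gel50_CS50 and 0.26 in Gel100, and 2.47 and 12.6 per Il1a UMI. The antagonist count per Il1a count was thus lower in Gel50_CS50 in all 3 myeloid classes, although dendritic Il1a depended on the clustering, and per Il1b count it was lower in macrophages and dendritic cells. Most dendritic UMIs of Il1a and Il1rn came from cluster 14 alone, with 2245 of 2386 Il1rn UMIs in Gel50_CS50 and 2704 of 2938 in Gel100. Both Il1b and Il1rn were seen in 22.3% of Gel50_CS50 and 28.8% of Gel100 macrophages at equal depth. Such ratios compare classes and libraries for the same pair of genes, and are not amounts of protein.

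Over the class of macrophages and monocytes, 4 of 7 members were measured (a mean of at least 20 CPM). Il1a was above 1.5-fold and Il1rn was below 1/1.5, while 2.59% of the 6099 genes measured were above and 4.62% below (7.21% in either direction). Il1b and Il1rap lay within these limits, with Il1rap at 34.5 CPM in Gel50_CS50 and 29.3 CPM in Gel100. The median gene of the class stood at a log2 ratio of -0.01.

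**Figure D2:**
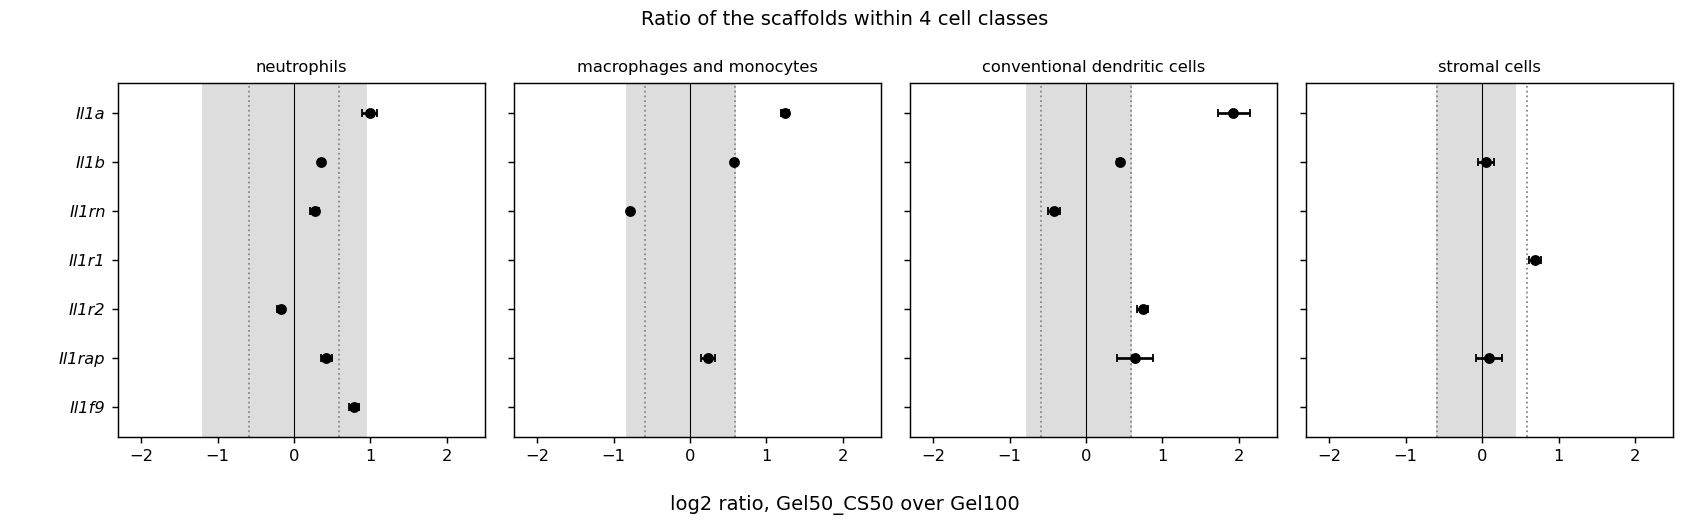
Log2 ratio of Gel50_CS50 over Gel100 for each measured member in 4 cell classes; points are ratios, bars 95% counting intervals, the grey band holds the central 95% of all genes measured in the class, and dotted lines mark 1.5-fold. In macrophages Il1a, at 1.24, lies outside the band, and Il1rn, at -0.78, lies just inside its lower edge.

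The macrophage class was made of 9 clusters, whose sizes differed between the libraries. Cluster 0 (led by Ms4a7 and Ccl12) held 229 Gel50_CS50 and 1581 Gel100 cells, and cluster 4 (led by Stfa3 and Arg1) held 793 and 77. Il1a was higher in Gel50_CS50 in 8 of the 9 clusters, with the interval above 0 in 7. Il1rn was lower in Gel50_CS50 in 8 of 9, with the interval below 0 in 7. The direction of both class-wide differences was thus found in most clusters taken separately. Their size depended on the makeup of the class: when the clusters were weighted alike in the 2 libraries, the log2 ratio was 0.49 for Il1a and -0.65 for Il1rn. Without clusters 0 and 4 it was 0.68 for Il1a and -0.58 for Il1rn. Cluster 0 alone held 11573 of the 23202 Il1rn UMIs of Gel100 macrophages. Il1rn per Il1b UMI was lower in Gel50_CS50 in 7 of the 9 clusters, with intervals apart in 6. The exceptions were cluster 9, at 0.298 in Gel50_CS50 and 0.291 in Gel100, and cluster 15, at 0.0902 and 0.0684. Per Il1a UMI it was lower in 8 of 9, mostly by less than over the whole class, as in cluster 5 at 2.02 in Gel50_CS50 and 4.56 in Gel100. Cluster 10 went the other way, at 4.76 in Gel50_CS50 and 3.15 in Gel100.

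Ligand levels varied more among macrophage clusters than between scaffolds. Il1b was highest in cluster 11 (led by Saa3 and Ly6i), at 4491 CPM in Gel50_CS50 and 3552 CPM in Gel100, and in cluster 5 (led by F13a1 and Ccl12), at 3851 and 3233 CPM. It was lowest in cluster 10 (led by Apoe, Gpnmb and Syngr1), at 131 CPM in Gel50_CS50 and 156 CPM in Gel100. Cluster 10 was the exception for Il1a, at 41.0 CPM in Gel50_CS50 and 86.1 CPM in Gel100, and it held 1.48 and 1.74 Il1rn UMIs per Il1b UMI. Il1a was highest in cluster 11, at 467 CPM in Gel50_CS50 and 246 CPM in Gel100. Cluster 15 (led by Ms4a7 and Adgre1) was the exception for Il1rn, at 84.99 CPM in Gel50_CS50 and 53.59 CPM in Gel100.

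**Figure D3:**
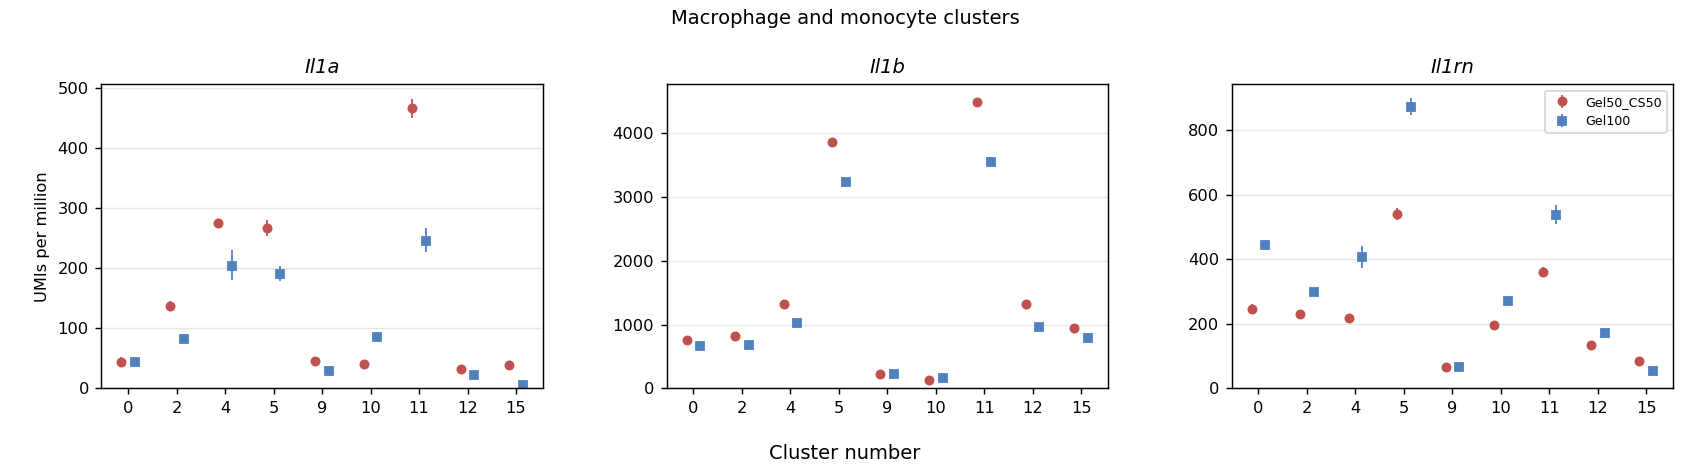
Level of Il1a, Il1b and Il1rn in the 9 macrophage and monocyte clusters, in CPM on linear axes from 0; red circles are Gel50_CS50, blue squares Gel100, bars 95% counting intervals. Clusters 5 and 11 stand highest for Il1b, and Il1rn lies lower in Gel50_CS50 in 8 of the 9 clusters.

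Neutrophils carried the widest set of members, with 6 of 7 measured and only Il1r1 below the filter. Of these, Il1a and Il1f9 were above 1.5-fold and none was below 1/1.5. Among the 3959 genes measured in neutrophils, 6.90% were above and 12.3% below (19.2% in either direction). Il1f9 was 1788 CPM in Gel50_CS50 (1756 to 1821) and 1037 CPM in Gel100 (1000 to 1077), a log2 ratio of 0.79 (0.73 to 0.85). It reached at most 8.3 CPM in any other class. At equal depth it was seen in 80.3% of Gel50_CS50 and 68.9% of Gel100 neutrophils.

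The decoy receptor Il1r2 was 1791 CPM in Gel50_CS50 and 2023 CPM in Gel100 neutrophils, a log2 ratio of -0.18 (-0.22 to -0.13). The shared subunit Il1rap was 1033 CPM in Gel50_CS50 and 772 CPM in Gel100 neutrophils, a log2 ratio of 0.42 (0.35 to 0.49). At equal depth Il1r2 was seen in 80.1% of Gel50_CS50 and 91.2% of Gel100 neutrophils, and Il1rap in 69.8% and 64.5%. Both were found together in 59.9% of Gel50_CS50 and 60.3% of Gel100 neutrophils. Il1b and Il1rn were found together in 84.9% and 79.8%, close to the shares with Il1rn, 84.9% and 80.5%, since nearly all neutrophils had Il1b. Whether either pair shared cells beyond what the single shares imply was not tested.

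The neutrophil class held 3 clusters that differed in these genes. Cluster 1 (led by S100a9, Il1f9 and Lcn2; 841 and 360 cells) had the highest Il1a, at 1055 CPM in Gel50_CS50 and 550 CPM in Gel100. Its Il1r2 was lower in Gel50_CS50, at 980 CPM in Gel50_CS50 and 1557 CPM in Gel100. Cluster 6 (led by S100a9, S100a8 and Cxcr2; 514 and 192 cells) showed little difference in Il1a, at 240.2 CPM in Gel50_CS50 and 243 CPM in Gel100, or in Il1b, at 18017 and 18260 CPM. Cluster 25 (led by the granule genes Ngp and Camp; 47 and 62 cells) had the lowest Il1b, at 4953 CPM in Gel50_CS50 and 2361 CPM in Gel100. Il1rap and Il1f9 were higher in Gel50_CS50 in 3 of 3 clusters, with every interval above 0. Il1a was higher in 2 of 3 clusters, while in cluster 6 the interval spanned 0, with a log2 ratio of -0.02 (-0.26 to 0.23).

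**Figure D4:**
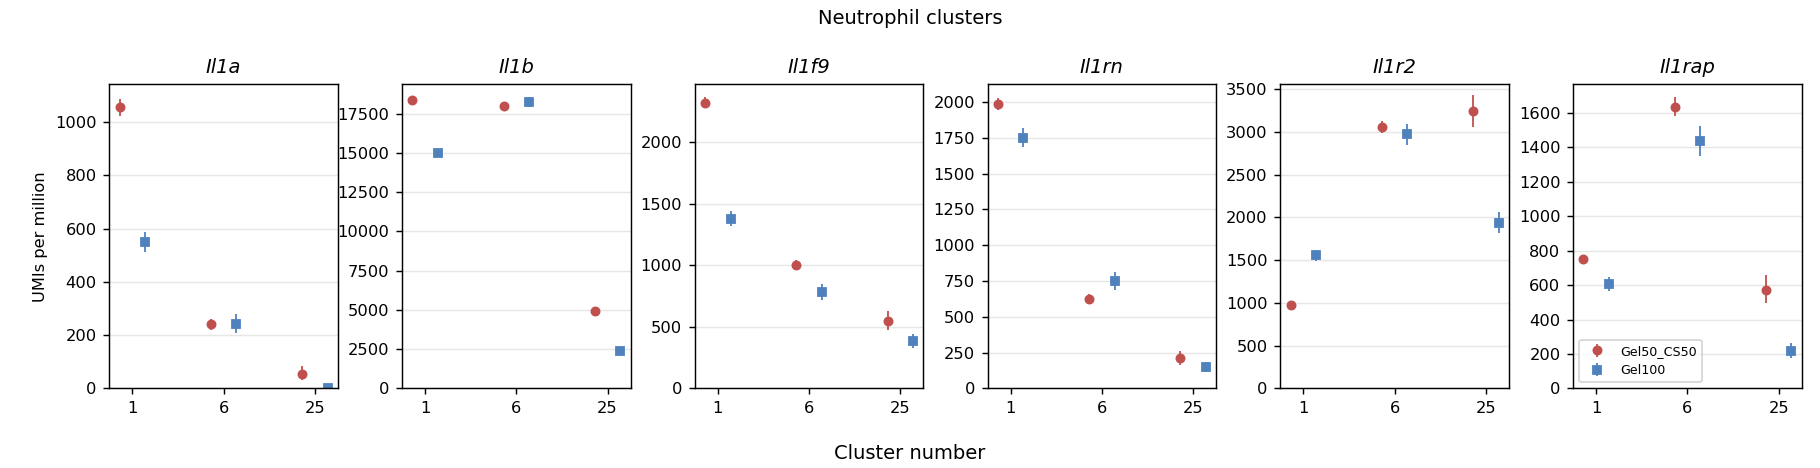
Level of 6 members in the 3 neutrophil clusters, in CPM on linear axes from 0; red circles are Gel50_CS50, blue squares Gel100, bars 95% counting intervals. Il1a and Il1f9 are highest in cluster 1, while Il1r2 is lowest there, at 980 CPM in Gel50_CS50 and 1557 CPM in Gel100.

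In conventional dendritic cells 5 members were measured and 3 of them, Il1a, Il1r2 and Il1rap, were above 1.5-fold, where 2.55% of genes were above and 4.51% below (7.06% in either direction). Il1r2 was 495 CPM in Gel50_CS50 (481 to 509) and 296 CPM in Gel100 (285 to 308), a log2 ratio of 0.74 (0.67 to 0.81). It was higher in Gel50_CS50 in 3 of 3 dendritic clusters, with every interval above 0. Neutrophil markers summed to 96.5 CPM in Gel50_CS50 and 190.2 CPM in Gel100 dendritic cells, and their part in the Il1r2 values was not tested. Il1rap was 44.1 CPM in Gel50_CS50 and 28.2 CPM in Gel100 there, a log2 ratio of 0.64 (0.41 to 0.88), or 0.57 and within 1.5-fold with called doublets kept. Its interval lay above 0 in cluster 14 alone, while clusters 18 and 19 had log2 ratios of -1.05 (-2.38 to 0.18) and 0.19 (-0.32 to 0.70). Among T cells, Il1r2 was found mainly in cluster 22 (led by Ctla4, Tnfrsf4 and Foxp3), at 177 CPM in Gel50_CS50 and 196 CPM in Gel100. T cell cluster 16 had 2.0 CPM in Gel50_CS50 and no UMI in Gel100.

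The signalling receptor Il1r1 had a different set of carriers. In gamma-delta T cells, marked here by Cd163l1, Trdc and Il17a, it was 1055 CPM in Gel50_CS50 (985 to 1129) and 1325 CPM in Gel100 (1250 to 1404), a log2 ratio of -0.33 (-0.46 to -0.20). At equal depth it was seen in 87.1% of Gel50_CS50 and 93.5% of Gel100 gamma-delta T cells (unthinned, 98.7% and 97.9%). In NK cells the thinned share was 0.490% in Gel50_CS50 and 0 in Gel100. In gamma-delta T cells the shared subunit Il1rap was 36.1 CPM in Gel50_CS50 and 58.9 CPM in Gel100, far below its level in neutrophils.

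In stromal cells, which make collagen, Il1r1 was 227 CPM in Gel50_CS50 (223 to 232) and 141 CPM in Gel100 (134 to 148). The log2 ratio was 0.69 (0.61 to 0.77). It was the only member of 3 measured beyond 1.5-fold, where 1.40% of 7006 genes were above and 2.53% below (3.93% in either direction). At equal depth Il1r1 was seen in 34.56% of Gel50_CS50 (30.91 to 38.36%) and 28.04% of Gel100 stromal cells (22.13 to 34.57%), and these intervals overlapped. Unthinned, the shares were 89.7% in Gel50_CS50 and 78.03% in Gel100. The direction differed among the stromal clusters. Cluster 13 (led by Col3a1 and Dcn) had 297 CPM in Gel50_CS50 and 155 CPM in Gel100. Cluster 17 (led by Col11a1) had 111 CPM in Gel50_CS50 and 82.4 CPM in Gel100. Cluster 27 (led by Dcn, Clec3b and Opcml) had 136 CPM in Gel50_CS50 and 191 CPM in Gel100, in 78 and 24 cells.

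Endothelial and mural cells also carried Il1r1, in few cells. Endothelial cells had 219 CPM in Gel50_CS50 and 113 CPM in Gel100, from 56 and 62 cells with median depths of 18619.5 and 2076.5 UMIs. Stromal markers summed to 2981 CPM in Gel50_CS50 and 60.8 CPM in Gel100 endothelial cells, and their part in the difference was not tested. Pericytes or smooth muscle cells had 331 CPM in Gel50_CS50 and 193 CPM in Gel100, from 52 and 28 cells. Stromal markers there summed to 15300 CPM in Gel50_CS50 and 6111 CPM in Gel100, again not tested. In endothelial cells 4 members were measured, with Il1r1 above 1.5-fold and Il1b and Il1rn below 1/1.5, where 9.69% of genes were above and 14.9% below (24.6% in either direction). Endothelial Il1rn rested on 4 UMIs in Gel50_CS50 and 28 in Gel100, and the log2 ratio of Il1b, -1.59, became 1.73 with called doublets kept. In pericytes or smooth muscle cells 4 were measured, with Il1r1 above and Il1b below, where 10.2% of genes were above and 14.4% below (24.6% in either direction). Ratios of this size were thus common in both classes.

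The other lymphoid and dendritic classes carried few of the genes. In T cells 3 members were measured and Il1b was above 1.5-fold, where 3.63% of genes were above and 4.59% below (8.22% in either direction). It was 235 CPM in Gel50_CS50 and 28.2 CPM in Gel100, but 1 T cell held 185 of the 374 Gel50_CS50 UMIs. In gamma-delta T cells 3 were measured, with Il1b above and Il1rap below, where 6.52% of genes were above and 8.27% below (14.8% in either direction). Il1b rested there on 44 UMIs in Gel50_CS50 and 9 in Gel100, and its log2 ratio of 2.40 became -0.19 when cells were thinned to equal depth. The log2 ratio of Il1rap, -0.71 (-1.42 to -0.02), came within 1.5-fold in 3 of 10 alternatives, at -0.24 when thinned, -0.52 with called doublets kept and -0.56 with each library clustered alone. In NK cells 2 were measured, Il1b and Il1rap, and 0 lay beyond 1.5-fold, where 1.87% of genes were above and 2.60% below (4.46% in either direction). In plasmacytoid dendritic cells the same pair was measured and 0 lay beyond 1.5-fold, where 1.78% of genes were above and 1.25% below (3.03% in either direction). Il1b, at 0.58, lay just inside that limit there and passed it in 3 of 10 alternatives, at 0.69 when thinned, 0.95 with each cell weighted equally and 1.32 with called doublets kept.

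The share of each gene's UMIs that a class held also depended on the number of its cells. Neutrophils held 47.6% of Il1b UMIs in Gel50_CS50 and 33.8% in Gel100, while macrophages held 43.0% and 53.1%. Macrophages held 55.7% of Il1rn UMIs in Gel50_CS50 and 77.0% in Gel100. Stromal cells held 80.0% of Il1r1 UMIs in Gel50_CS50 (79.2 to 80.7%) and 48.7% in Gel100 (47.0 to 50.5%). Gamma-delta T cells, 1.03% of Gel50_CS50 and 1.24% of Gel100 cells, held 7.95% of Il1r1 UMIs in Gel50_CS50 and 36.0% in Gel100. Neutrophils held 95.02% of Il1f9 UMIs in Gel50_CS50 and 92.54% in Gel100. The sort for viable cells and the depth gap can both change the cell shares behind these values, and their part was not tested.

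**Figure D5:**
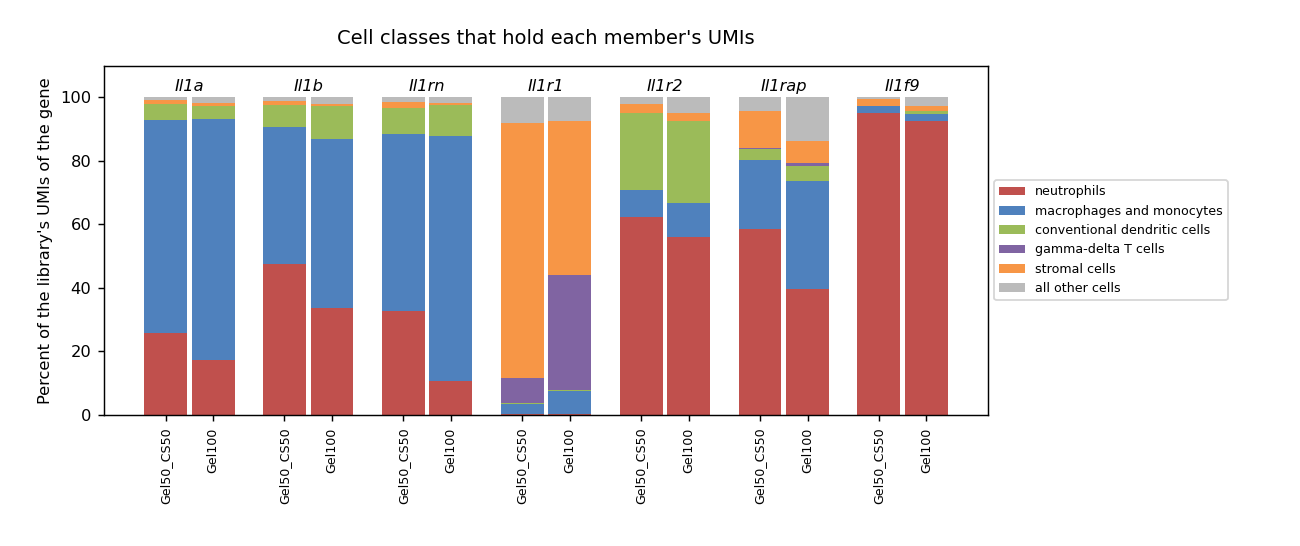
Share of each member's UMIs that came from each cell class, in percent of all its UMIs in kept cells, with Gel50_CS50 at the left of each pair and Gel100 at the right. For Il1r1 the stromal part is 80.0% in Gel50_CS50 and 48.7% in Gel100, and the gamma-delta T part is 7.95% and 36.0%.

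Other genes of the pathway were read from lists chosen by knowledge of the pathway, but with earlier results of these data known. The counts over these lists are therefore descriptions only. Of 20 genes known to respond to interleukin-1, 13 were measured in macrophages, with 5 above 1.5-fold and 2 below, where 2.59% of all genes were above and 4.62% below. Their median log2 ratio was 0.28, against -0.01 for all genes. Saa3, an acute-phase protein, was 2183 CPM in Gel50_CS50 and 934 CPM in Gel100, and the neutrophil chemokine Cxcl1 was 435.5 and 229 CPM. Ptges, which makes prostaglandin E2, was 71.3 CPM in Gel50_CS50 and 23.4 CPM in Gel100. Cxcl2 and Lcn2 were also above. The monocyte chemokines Ccl2, at 337.5 CPM in Gel50_CS50 and 712 CPM in Gel100, and Ccl7, at 283 and 563.5 CPM, were below. Genes of the list thus lay on both sides.

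In neutrophils 13 of the same genes were measured, with 6 above and 0 below, where 6.90% of all genes were above and 12.3% below, and their median was 0.46 against -0.06 for all genes. Lcn2, which binds bacterial siderophores, was 4996 CPM in Gel50_CS50 and 1572 CPM in Gel100, and Saa3 was 797 and 147 CPM. Cxcl1, Cxcl2, Ptges and Zc3h12a were the others. In stromal cells 16 were measured, with 4 above and 2 below, where 1.40% of all genes were above and 2.53% below, and the median was -0.02, like that of all genes. The collagenase gene Mmp13 was 125.5 CPM in Gel50_CS50 and 29.8 CPM in Gel100, and the chemokine Cxcl5 was 438 and 182 CPM. Mmp3 and Saa3 were also above. Saa3 was above 1.5-fold in NK cells too, at 63.05 CPM in Gel50_CS50 and 30.43 CPM in Gel100. The same held in T, gamma-delta T, plasmacytoid dendritic, endothelial and mural cells, but not in conventional dendritic cells. Its difference was thus not particular to macrophages, neutrophils or stromal cells, and its source was not tested. Ptgs2, the inducible cyclooxygenase, was 105 CPM in Gel50_CS50 and 177 CPM in Gel100 stromal cells, and Ccl2 was 392 and 793 CPM.

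Of the 13 genes for the inflammasome and other processing enzymes, 9 were measured in macrophages, with 0 above and Casp1 below (all genes, 2.59% above and 4.62% below). Casp1, whose product cleaves the interleukin-1 beta precursor, was 73.5 CPM in Gel50_CS50 and 119 CPM in Gel100. In neutrophils 6 were measured, and 1 was above (all genes, 6.90%). This was Nlrp3, the inflammasome sensor, at 4126 CPM in Gel50_CS50 and 2499 CPM in Gel100. In stromal cells 5 were measured and 0 lay beyond 1.5-fold (all genes, 3.93%). Of 15 receptor signalling genes, 13 were measured in macrophages and 10 in stromal cells, with 0 beyond 1.5-fold in either (all genes, 7.21% in macrophages and 3.93% in stromal cells). In neutrophils 9 were measured and 3 of them, Irak3, Ikbkb and Nfkb1, were above, where 6.90% of all genes were above. Irak3, a brake on the pathway, was 862 CPM in Gel50_CS50 and 282 CPM in Gel100.

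Among other family members, Il18bp, which neutralises interleukin-18, was 27.7 CPM in Gel50_CS50 and 72.4 CPM in Gel100 macrophages. Il18 itself was 67.7 CPM in Gel50_CS50 and 140.0 CPM in Gel100 neutrophils. The interleukin-33 receptor Il1rl1 was 151 CPM in Gel50_CS50 and 259 CPM in Gel100 stromal cells, and Il1rapl1 was 11.0 and 30.4 CPM. Il1rl2, the receptor partner for the product of Il1f9, was 70.82 CPM in Gel50_CS50 and 76.01 CPM in Gel100 stromal cells.

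For each member, the genes with the most similar pattern were sought by Pearson correlation over 20 points (10 classes in both libraries, log2 of CPM plus 5) among 7673 genes. The points share libraries and cells, so the values are descriptions only. Closest to Il1b were Nlrp3 (0.98), Slc7a11 and Ifitm6, and closest to Il1a were Mefv (0.98), Cxcl2 and Nlrp3. Closest to Il1rn were Sirpb1c (0.98), Sirpb1a and Clec4n. Il1f9 was closest to Cstdc4 (0.99), Cxcr2 and Hdc, and Il1rap to Stfa2 (0.98), Gm31814 and Spatc1. Il1r1 was closest to Sox13 (0.95), Prickle2 and Pard3, and Il1r2 had the lowest best value, with Gm47922 at 0.91, then Dhrs9 and Piwil2.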

How the data were processed

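The authors deposited whole-number UMI counts per gene and cell barcode for 2 libraries, with no normalization, made with Cell Ranger 6.0.2 per the file headers on build mm10 per the submitters' processing notes. The sources used here name no annotation release. There were 7515 barcodes and 150311308 UMIs in Gel50_CS50 and 7845 barcodes and 108847835 UMIs in Gel100. Barcodes with at least 500 UMIs, at least 200 genes and under 20% mitochondrial counts were kept. Scrublet (expected rate 0.06) called 192 and 179 doublets, which were removed. Each cell's counts were brought to a total of 10000 and then to a log scale. From 3000 variable genes without the 7 members, 30 principal components and 15 neighbours gave 36 clusters (scanpy 1.11.5, leidenalg 0.10.2, resolution 1.0, both libraries together, no integration).

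A cluster took the class with the highest marker score, with a score of at least 1.5, a lead of 0.5, at least 3 detected markers and a median of at least 1500 UMIs. The UMI limit was set after the data were seen. So was the way leading genes were ranked, by fold over cells of other classes: the version tried before would have left the neutrophil cluster 1 unnamed. Named genes were all 7 members, the 3 genes closest to each, and list genes beyond 1.5-fold or at the ends of their list. The members and lists were chosen with earlier results of these data known.

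Counts were summed per class and library and scaled to 1000000. Ratios have exact conditional binomial 95% intervals, shares exact Clopper-Pearson intervals and levels exact Poisson intervals, all for counting error only. A count of 0 allows 3 counts. A gene counted as measured where its 2 CPM values averaged 20 or more. For shares at equal depth, each cell was thinned to 3000 UMIs, which left out 39 and 323 macrophages and 115 and 90 neutrophils of Gel50_CS50 and Gel100. Ratios and intervals were checked on simulated data. Of the gene identifiers, 99.6% were found in GENCODE vM21.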

Additional observations from a re-analysis of the deposited data

Results flagged for a closer look

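Pairs of cell classes in which a member's log2 ratio of Gel50_CS50 over Gel100 pointed in opposite directions were collected, and in no case was the difference between the classes tested. Limits of 1.5-fold in both directions gave 5 pairs. After these were seen to rest on few cells, a second set of limits was added: at least 50 cells and 50 UMIs per library and class, intervals on opposite sides of 0, and 1 ratio beyond 1.5-fold. That choice was made with the values known, and it gave 4 more pairs.

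Under the limits used at the start, Il1b stood at 3.06 in T cells and 2.40 in gamma-delta T cells, against -1.59 in endothelial cells and -1.57 in pericytes or smooth muscle cells. In T cells 5 cells held 86.1% of the Gel50_CS50 UMIs, with 185 UMIs in 1 cell, and neutrophil markers summed to 172 CPM in Gel50_CS50 and 50.4 CPM in Gel100. In gamma-delta T cells 5 cells held 65.9% of 44 UMIs in Gel50_CS50. Endothelial cells had 27 and 36 Il1b UMIs in Gel50_CS50 and Gel100, and in pericytes or smooth muscle cells 5 cells held 83.5% and 81.4% of the UMIs. Il1rap stood at 0.64 in conventional dendritic cells, against -0.71 in gamma-delta T cells, from 29 UMIs in Gel50_CS50 and 51 in Gel100, and the calls in both classes were lost with called doublets kept, at 0.57 and -0.52.

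Under the added limits, Il1rn stood at 0.27 in neutrophils, against -0.78 in macrophages and monocytes. The neutrophil ratio was 0.12 with the same cluster weights in both libraries. Il1rn was lower in Gel50_CS50 in neutrophil cluster 6, with a log2 ratio of -0.26 (-0.40 to -0.11). It was higher in clusters 1 and 25, at 0.18 (0.12 to 0.25) and 0.50 (0.01 to 0.99). Il1r1 stood at 0.69 in stromal cells and 0.96 in endothelial cells, against -0.33 in gamma-delta T cells. Il1r2 stood at 0.74 in conventional dendritic cells, against -0.18 in neutrophils. Of the neutrophil clusters, only cluster 1 had Il1r2 lower in Gel50_CS50, at -0.67 (-0.74 to -0.59). Cluster 6 was at 0.04 (-0.03 to 0.11) and cluster 25 at 0.74 (0.62 to 0.87).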

How the results depend on the processing

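No paired analysis was possible because each scaffold has 1 pooled library, and for the same reason no library could be left out. The 16 ratios beyond 1.5-fold kept their direction in 167 of 171 alternatives and stayed beyond 1.5-fold in the same direction in 159; the 20 ratios within 1.5-fold kept their direction in 199 of 214. Of the macrophage members, 2 were beyond 1.5-fold; 1 was with the same cluster weights in both libraries, 1 without clusters 0 and 4 (an alternative chosen after seeing the data) and 1 at a 2-fold limit. Of the neutrophil members 2 were beyond the limit, and 0 at 2-fold. Of the stromal members 1 was beyond it, against 3 with each cell weighted equally, 4 thinned to 3000 UMIs, 2 with no filter on low values and 0 at 2-fold. Il1r1 in stromal cells stayed above 1.5-fold in all 11 of its ratio alternatives, at 0.63 to 0.75, while Il1b there ranged from -1.05 to 0.54. Among ratios beyond 1.5-fold, those that changed sign were Il1b in gamma-delta T cells (-0.19 when thinned), Il1a in conventional dendritic cells (-0.48 with each library clustered alone) and Il1b in endothelial cells (1.73 with called doublets kept, 0.31 at clustering resolution 0.5). Beyond the construction of each alternative, the cause was not tested. Depth limits the small classes most: endothelial cells of Gel100 had a median of 2076.5 UMIs.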
